A study of Mus musculus with 10 samples.

Results

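Bmp4, Id2, Id3 and Smad7 are 4 genes of the bone morphogenetic protein (BMP) pathway, and their transcript levels were followed in mouse embryonic stem cells under 5 culture conditions. They were chosen by symbol in the upper lines of the deposited expression table, where symbols and values belong together. They are 4 of its 20494 lines, each was found once, and all 4 passed the filter on low values. The material was RNA of an embryonic stem cell line with the strain label C57BL6X129S6F1, and each condition had 2 libraries, numbered 3 and 5, 10 in all. Per the labels, the conditions were LCDM, A2iL, 2iL-F, 2iL and SL. LCDM, A2iL, 2iL-F and 2iL used the serum-free medium N2B27 with 1000 IU mLIF, the mouse cytokine leukemia inhibitory factor, and 3 µM Chir99021, which inhibits the kinase GSK3. To this LCDM added 2 µM Dim and 2 µM Mih, as the labels abbreviate them. A2iL added 1.5 µM CGP77675, a Src kinase inhibitor. 2iL-F and 2iL added 1 µM PD0325901, a MEK inhibitor, and are labelled as lacking feeder cells in the case of 2iL-F and as having them in the case of 2iL. SL, the condition the others were set against, was KO-DMEM with 15% fetal bovine serum and 1000 IU mLIF. Per the labels LCDM, A2iL and SL also had feeder cells. All came from 1 line, and no label ties libraries 3 and 5 to separate cultures. The p-values therefore speak only of spread between libraries, part or all of which may be technical.

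BMP4 is a secreted ligand that binds paired type I and type II serine/threonine kinase receptors. These phosphorylate SMAD1, SMAD5 and SMAD9, which enter the nucleus with SMAD4 and act on target genes, among them the Id genes and the genes of the inhibitory SMADs. ID proteins are helix-loop-helix proteins with no DNA-binding region that hold E proteins and other basic helix-loop-helix (bHLH) factors away from DNA, and SMAD7 binds activated receptors and limits both BMP and TGF-β signals. In mouse embryonic stem cells in culture, BMP from serum together with leukemia inhibitory factor is known to sustain self-renewal, in part through the Id genes.

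All 9 stem cell markers found had at least 1 TPM in every library. The feeder labels were not matched by the transcripts. TPM gives a transcript as its share of all transcripts in a library, corrected for length, so levels of different genes can be set side by side. Over 32 fibroblast genes found of 38 listed, the summed level was 1476 to 1494 TPM in LCDM, 3758 to 3849 in A2iL, 5404 to 5613 in 2iL-F, 1019 to 1079 in 2iL and 6880 to 7143 in SL. The 2iL sum was mostly Fn1, at 386 and 420 TPM, and Sparc, at 436 and 446, both of which many cell types express. Dcn, Lox, Postn, Fap and Acta2 were listed at 0 in both 2iL libraries, and Col1a1 had 0.200 and 0.264 TPM there. In 2iL-F, where the label gives no feeder, Col1a1 had 1058 and 974 TPM, above SL at 366 and 393. The listed genes were split between 2iL-F and SL. Thy1 had 70.9 and 68.4 TPM in 2iL-F against 158 and 160 in SL, and Vim 208 and 211 against 485 and 513. The libraries labelled 2iL-F and 2iL therefore go against their feeder labels, and every comparison that uses them carries this. In such bulk RNA, fewer cells of a type and less RNA per cell cannot be told apart.

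Sequences upstream of 3 of the 4 genes are shown because BMP signals and ID proteins both work through factors that bind short DNA words. RefSeq promoter windows (GRCm38.p6) were searched on both strands for GGCGCC and GGAGCC, words that BMP-responsive SMADs bind, for CAGAC, the SMAD-binding element, and for the E-box CANNTG, the word of bHLH factors that ID proteins antagonize. Capitals mark the matches in the 250 bases before each gene's start, printed 5′ to 3′ on the gene's strand. The windows are chr14:46390670-46390919 on the minus strand for Bmp4, chr12:25096093-25096342 on the minus strand for Id2 and chr4:136143572-136143821 on the plus strand for Id3.
Bmp4: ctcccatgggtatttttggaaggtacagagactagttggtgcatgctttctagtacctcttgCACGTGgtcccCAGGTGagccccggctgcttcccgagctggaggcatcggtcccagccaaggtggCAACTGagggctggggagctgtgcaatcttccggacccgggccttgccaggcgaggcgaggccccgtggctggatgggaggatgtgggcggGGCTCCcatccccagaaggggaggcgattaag
Id2: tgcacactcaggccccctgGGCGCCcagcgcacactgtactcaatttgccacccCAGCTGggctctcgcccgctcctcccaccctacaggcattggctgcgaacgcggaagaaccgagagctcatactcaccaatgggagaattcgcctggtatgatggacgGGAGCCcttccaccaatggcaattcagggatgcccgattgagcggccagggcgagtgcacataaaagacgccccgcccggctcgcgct
Id3: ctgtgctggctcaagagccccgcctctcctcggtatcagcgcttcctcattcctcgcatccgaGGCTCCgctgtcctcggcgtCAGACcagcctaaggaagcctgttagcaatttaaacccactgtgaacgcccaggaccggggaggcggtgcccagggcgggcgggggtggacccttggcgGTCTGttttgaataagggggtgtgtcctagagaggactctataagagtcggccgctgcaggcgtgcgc
All 3 windows held GGAGCC once, beginning 32 bases before the start in Bmp4, 88 in Id2 and 187 in Id3. GGCGCC was found once, in Id2, at 231 bases before the start. CAGAC was found in Id3 alone of the 3, at 167 and 68 bases. Bmp4 held 3 E-boxes and Id2 held 1, and none of these letters stood in the Id3 window. Over 32851 promoter windows of the same length, 9.6% held GGCGCC, 26.0% held GGAGCC, 42.2% held CAGAC and 66.2% held CANNTG. The GC content was 63.2% in Bmp4 and 62.8% in both Id2 and Id3, against a median of 52.4% over all windows. No matches to different words overlapped. The RefSeq starts of Id2 and Id3 lie inside the GENCODE loci given with each gene. A match describes letters in the window and was not read as a bound site.

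Bmp4, the ligand, was high in A2iL, LCDM and SL, and low in 2iL-F and 2iL. Its gene lies on mouse chromosome 14 (mm10, 46383520 to 46390669, minus strand). In TPM, libraries 3 and 5 had 20.8 and 21.3 in LCDM, 30.0 and 34.5 in A2iL, 3.70 and 2.95 in 2iL-F, 0.975 and 0.550 in 2iL, and 16.0 and 19.2 in SL. No library of any condition overlapped with those of another, and the condition means ran in the order A2iL, LCDM, SL, 2iL-F and 2iL. Such separation was common, since 77.3% to 85.8% of all lines that passed the filter had libraries apart in each pairwise comparison. The share apart in all comparisons at once was not counted. On the opposite strand the gene overlaps the antisense gene Gm15222 over 1764 bases and Gm15217 over 89 bases, and the sources used here do not say whether counting used the strand, so reads of these genes cannot be told apart.

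Differences are given on the scale of log2(TPM + 1), which understates the change of a low gene, and were tested with limma across all 14578 lines that had at least 1 TPM in at least 2 libraries, with p-values adjusted by Benjamini and Hochberg. Relative to SL, Bmp4 fell by 3.41 in 2iL (SE 0.14, adjusted p = 6.99e-08) and by 2.11 in 2iL-F (adjusted p = 2.89e-06), and it rose by 0.84 in A2iL (adjusted p = 0.00124). The difference of LCDM from SL was 0.25 (95% interval -0.08 to 0.57, adjusted p = 0.158), so for these neighbours in the order the difference did not pass the test. Bmp4 stood above 2iL by 3.65 in LCDM, by 4.25 in A2iL and by 1.30 in 2iL-F, the last with an adjusted p of 6.91e-05 in limma and a difference of 2.03 with a pseudocount of 0.1 TPM. Against 2iL-F, Bmp4 was higher by 2.95 in A2iL and by 2.35 in LCDM. LCDM was lower than A2iL, with a difference of -0.59 (limma, adjusted p = 0.0075), and this call was lost without A2iL library 5, where the difference was -0.49 with an adjusted p of 0.0563.

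**Figure D1:**
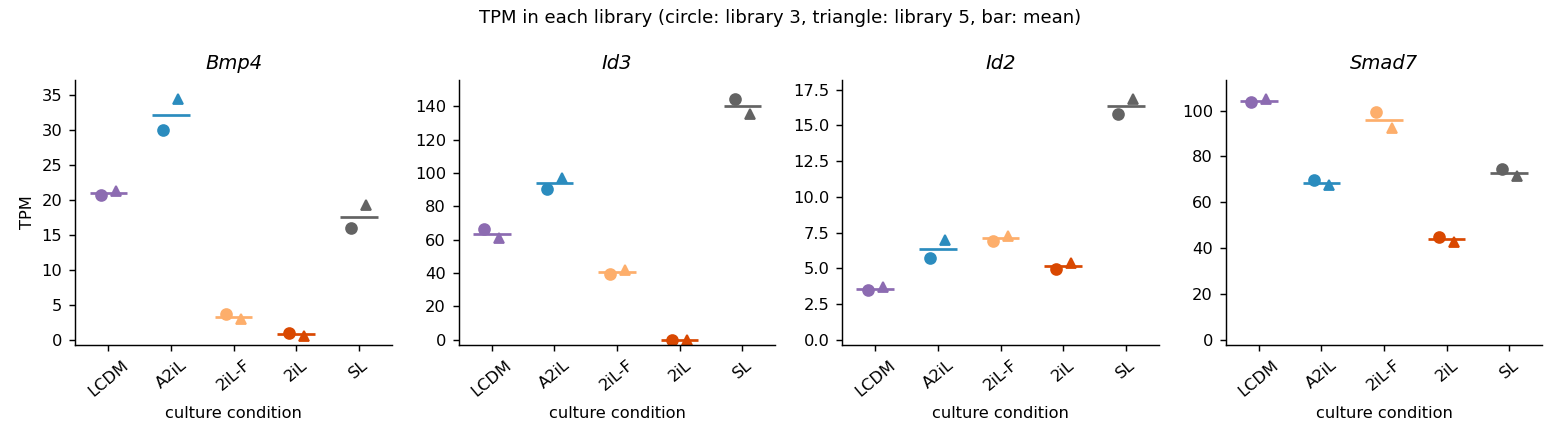
The panels show TPM of Bmp4, Id3, Id2 and Smad7 in each of the 10 libraries, with points for libraries and a line for the mean of each condition. Bmp4 and Id3 are lowest in 2iL, Id2 is highest in SL at 15.8 and 16.8 TPM, and Smad7 is highest in LCDM at 104 and 105 TPM.

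Id3 is an inhibitor of bHLH factors and a direct BMP-SMAD target. It was the most variable of the 4, at 66.3 and 61.0 TPM in LCDM, 90.4 and 97.2 in A2iL, 39.2 and 41.6 in 2iL-F, 0.0489 and a listed 0 in 2iL, and 144 and 135 in SL. The 5 conditions did not overlap, and their means ran in the order SL, A2iL, LCDM, 2iL-F and 2iL. Of all tested lines, 77.3% to 85.8% had libraries apart in each pairwise comparison. Id3 lies on chromosome 4 (mm10, 136143497 to 136145755, plus strand). Among all tested lines its level was higher than 86.4% of them in LCDM, 91.5% in A2iL, 79.3% in 2iL-F, 3.6% in 2iL and 94.3% in SL.

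Every step of the Id3 order passed the test. Relative to SL, Id3 fell by 0.57 in A2iL (SE 0.07, limma, adjusted p = 0.000147), by 1.12 in LCDM (adjusted p = 1.41e-06), by 1.77 in 2iL-F (adjusted p = 9.71e-08) and by 7.10 in 2iL (adjusted p = 1.25e-11). The size of the difference from 2iL depends on the pseudocount, since 1 library is listed at 0: with 0.1 TPM in place of 1 the difference of 2iL from SL was -10.16. Id3 exceeded its 2iL level by 5.98 in LCDM, by 6.53 in A2iL and by 5.34 in 2iL-F, and with the smaller pseudocount these differences were 9.03 for LCDM, 9.59 for A2iL and 8.37 for 2iL-F. Both 2iL-F libraries held at least 39.2 TPM although they share the labelled medium with 2iL, and the difference between these groups had an adjusted p of 9.18e-11 (limma). Id3 was also higher than in 2iL-F by 1.19 in A2iL and by 0.64 in LCDM, and LCDM was lower than A2iL, with a difference of -0.55 (limma, adjusted p = 0.000182).

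Id2, the other Id gene, did not follow the Id3 order. Its levels were 3.51 and 3.66 TPM in LCDM, 5.68 and 6.97 in A2iL, 6.93 and 7.27 in 2iL-F, 4.96 and 5.37 in 2iL, and 15.8 and 16.8 in SL. SL stood apart above the rest and LCDM stood below the rest, while the A2iL libraries overlapped with those of 2iL-F. The gene lies on chromosome 12 (mm10, 25093799 to 25097140, minus strand), and its mean order was SL, 2iL-F, A2iL, 2iL and LCDM.

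Id2 fell relative to SL in all 4 serum-free conditions, by 1.92 in LCDM (SE 0.09, limma, adjusted p = 4.06e-07), by 1.25 in A2iL (adjusted p = 1.07e-05), by 1.10 in 2iL-F (adjusted p = 1.16e-05) and by 1.49 in 2iL (adjusted p = 8.53e-07). LCDM was lower than 2iL, with a difference of -0.43 (limma, adjusted p = 0.00368), in the same comparison in which Id3 was higher by 5.98. LCDM was also lower than 2iL-F, with a difference of -0.82, and lower than A2iL, with a difference of -0.67. 2iL-F was higher than 2iL by 0.39 (limma, adjusted p = 0.00554). The difference of A2iL from 2iL, 0.24 (limma, adjusted p = 0.0418), was not stable: it ran from 0.12 to 0.37 as single libraries were left out, and its adjusted p then ran from 0.00911 to 0.299. The call was lost without library 3 of 2iL, without library 5 of A2iL and without either library of LCDM, 2iL-F or SL. A2iL and 2iL-F differed by -0.15 (95% interval -0.36 to 0.06, limma, adjusted p = 0.219).

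The ratio of Id3 to Id2 therefore differed between conditions. It was 17.8 ± 1.57 in LCDM, 14.9 ± 1.38 in A2iL, 5.69 ± 0.046 in 2iL-F, 0.00986 and 0 in the 2iL libraries, and 8.58 ± 0.769 in SL (SD, n = 2 each). LCDM and A2iL, in which both genes lay below SL, thus had ratios above SL.

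Smad7, the inhibitory SMAD, was the most evenly expressed of the 4. It had 104 and 105 TPM in LCDM, 69.5 and 67.7 in A2iL, 99.6 and 92.3 in 2iL-F, 45.0 and 42.6 in 2iL, and 74.4 and 71.3 in SL. The conditions did not overlap, LCDM and 2iL-F were high, and 2iL was low. Libraries were likewise apart in 77.3% to 85.8% of all tested lines in each pairwise comparison. Smad7 stayed above at least 79.9% of all tested lines in every condition.

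Relative to SL, Smad7 fell by 0.72 in 2iL (SE 0.05, limma, adjusted p = 2.46e-06), and it rose by 0.51 in LCDM (adjusted p = 3.9e-05) and by 0.39 in 2iL-F (adjusted p = 0.000209). The difference of A2iL from SL was -0.08 (95% interval -0.20 to 0.04, limma, adjusted p = 0.208), and its sign turned to 0.01 under quantile normalization. Smad7 was higher than in 2iL by 1.23 in LCDM, 1.11 in 2iL-F and 0.64 in A2iL, the last with an adjusted p of 8.25e-06 (limma). A2iL was lower than 2iL-F, with a difference of -0.48 (limma, adjusted p = 0.000124), and LCDM was higher than A2iL by 0.60 (adjusted p = 2.89e-05). The difference of LCDM from 2iL-F was 0.12 (95% interval 0.00032 to 0.24, limma, adjusted p = 0.0781), which did not pass, although without 2iL-F library 3 it was 0.17 with an adjusted p of 0.0459. Its gene lies on chromosome 18 (mm10, 75367529 to 75395935, plus strand).

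**Figure D2:**
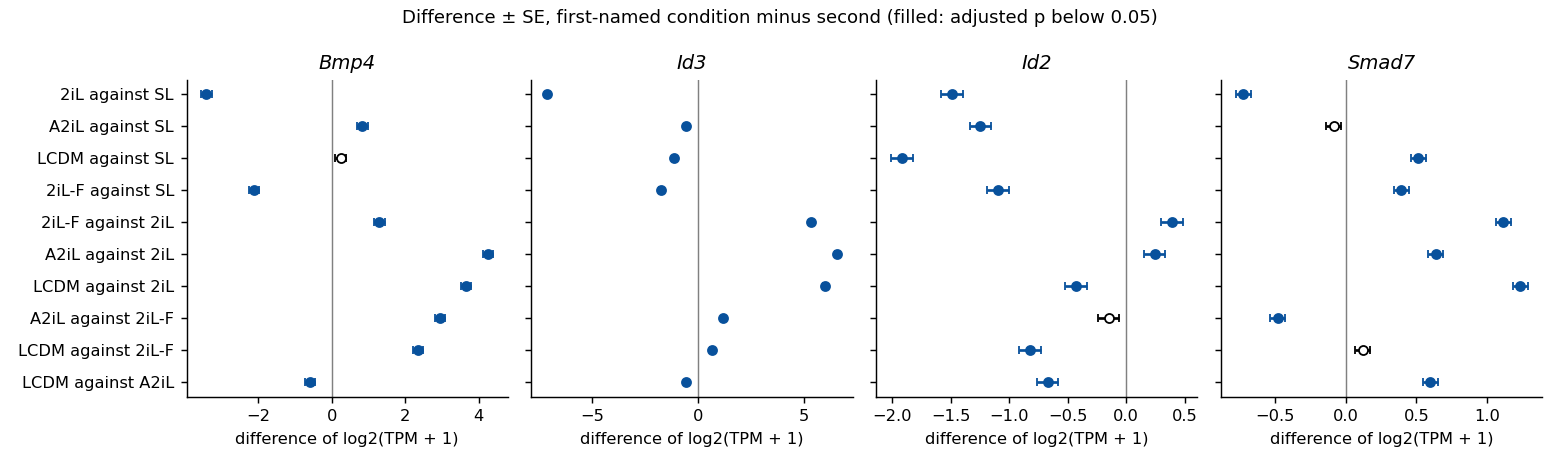
Each panel gives 1 gene and each point a difference on the log2(TPM + 1) scale between 2 conditions from limma, with bars for 1 SE and open circles for differences that were not called. Id3 differences from 2iL reach 6.53 in A2iL, and the Smad7 difference of A2iL from SL lies at -0.08, an open circle.

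Of the 4 genes, 3 or 4 were called in each of the 10 comparisons, where 45.3% to 77.7% of all tested lines were called. By limma's F test over the 5 conditions all 4 were called, as were 90.1% of the 14578 lines. In LCDM against SL, Smad7 rose and both Id genes fell, where 65.9% of lines were called and 84.2% had the libraries of the groups apart. In A2iL against SL, Bmp4 rose and Id2 and Id3 fell, where 53.8% were called and 79.7% were apart. In 2iL-F against SL, Smad7 rose and the other 3 fell, where 65.4% were called and 84% were apart. In 2iL against SL all 4 fell, where 77.7% were called, 40.9% were called lower and 85.8% were apart. These comparisons share the SL libraries.

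With 2iL as the common group, all 4 were higher in 2iL-F, where 61.7% of lines were called, 29.2% were called higher and 78.2% were apart. All 4 were higher in A2iL than in 2iL, where 69.5% were called, 33.2% were called higher and 82.1% were apart. In LCDM against 2iL, Bmp4, Id3 and Smad7 were higher and Id2 was lower, where 62.3% were called and 78.3% were apart. In A2iL against 2iL-F, Bmp4 and Id3 were higher and Smad7 was lower, where 45.3% were called and 77.3% were apart. In LCDM against 2iL-F, Bmp4 and Id3 were higher and Id2 was lower, where 59.5% were called and 82.3% were apart. In LCDM against A2iL, Smad7 was higher and the other 3 were lower, where 54% were called and 80.1% were apart. Called differences of at least 1 on the log2 scale were less common, at 8.14% to 29.3% of lines.

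Across the 10 libraries the log2 levels of Bmp4 and Id3 had a Pearson correlation of 0.86, Id3 and Smad7 of 0.74, Bmp4 and Smad7 of 0.51, Id2 and Id3 of 0.39, Bmp4 and Id2 of 0.15 and Id2 and Smad7 of -0.09. These describe 5 pairs of libraries that share their condition, and carry no test.

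Summed fibroblast levels moved with the 4 genes only in part. SL had the highest fibroblast sum and the highest Id2 and Id3, and 2iL had the lowest sum and the lowest Bmp4, Id3 and Smad7. Acta2, Tagln and S100a6 were a large part of the SL sum, at 875 and 907, 884 and 933, and 775 and 762 TPM. In 2iL-F they had 36.8 and 39.3, 27.6 and 25.9, and 82.7 and 86.0 TPM. Col1a1, Col3a1 and Fbn1 were instead higher in 2iL-F, so the sums do not rank feeder RNA in SL and 2iL-F. LCDM had 20.8 and 21.3 TPM of Bmp4 and the highest Smad7. Its fibroblast sum of 1476 to 1494 TPM came next above that of 2iL at 1019 to 1079. That 2iL sum was mostly Fn1 and Sparc, so the sums understate how far LCDM and 2iL differ in fibroblast transcripts. Of the 32 genes, 30 to 31 reached 1 TPM in LCDM against 11 in 2iL. Col1a1 had 108 and 105 TPM in LCDM against 0.200 and 0.264 in 2iL, whereas Fn1, Sparc and Timp1 were lower in LCDM. 2iL-F, with 5404 to 5613 TPM of fibroblast transcripts, had 3.70 and 2.95 TPM of Bmp4. The part of feeder transcripts in the differences was not tested. In the comparisons among LCDM, A2iL and SL, a fit without the libraries labelled 2iL-F and 2iL kept every call of the 4 genes.

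**Figure D3:**
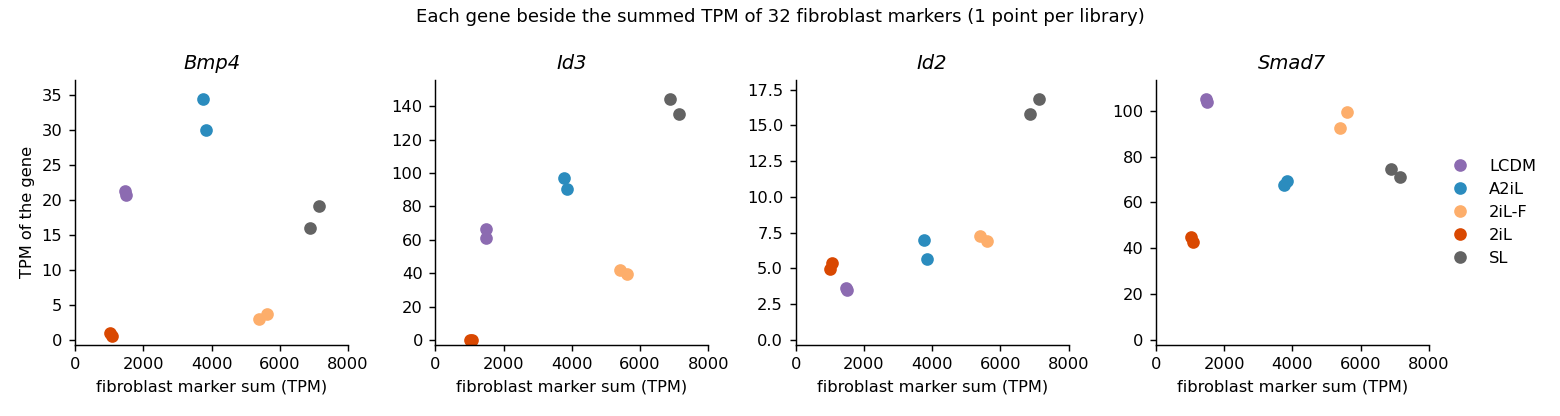
Each panel plots TPM of 1 gene on the vertical axis against the summed TPM of 32 fibroblast genes on the horizontal axis, with 1 point per library and a colour per condition. The LCDM libraries lie nearest those of 2iL on the horizontal axis, at 1476 to 1494 against 1019 to 1079 TPM, and above them in Bmp4, Id3 and Smad7. The 2iL sum was mostly Fn1 and Sparc, and 30 to 31 of the 32 genes reached 1 TPM in LCDM against 11 in 2iL.

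The BMP ligands changed in make-up between the conditions. The ligand genes Bmp2, Bmp4, Bmp7, Bmp8a and Bmp8b were measured above the filter, and their levels summed to 51.6 ± 2.06 TPM in LCDM, 60.3 ± 3.85 in A2iL, 24.7 ± 2.05 in 2iL-F, 37.5 ± 1.70 in 2iL and 34.7 ± 1.26 in SL (SD, n = 2 each). Bmp4 made up 40.8% of this sum in LCDM, 53.4% in A2iL, 13.4% in 2iL-F, 2.01% in 2iL and 50.8% in SL. Bmp7, a ligand that also binds type I receptors of the BMP class, made up 35.8% in LCDM, 13.4% in A2iL, 42.7% in 2iL-F, 72.6% in 2iL and 5.41% in SL. The 2iL libraries, with the least Bmp4, were thus the ones with the most Bmp7.

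Bmp7 had 17.5 and 19.5 TPM in LCDM, 7.89 and 8.32 in A2iL, 11.03 and 10.02 in 2iL-F, 28.9 and 25.7 in 2iL, and 1.77 and 1.99 in SL. No conditions overlapped, where 77.3% to 85.8% of all tested lines were apart in each pairwise comparison, and SL was the lowest. Bmp7 rose relative to SL by 2.76 in LCDM, 1.66 in A2iL, 2.00 in 2iL-F and 3.29 in 2iL on the log2(TPM + 1) scale (limma, adjusted p from 4.51e-09 to 1.5e-06). Bmp2, the closest relative of Bmp4, averaged 0.703 ± 0.375 TPM in LCDM, 10.6 ± 0.244 in A2iL, 0.981 ± 0.0366 in 2iL-F, 0.225 ± 0.0746 in 2iL and 2.26 ± 0.0187 in SL (SD, n = 2 each). A2iL was thus high in both Bmp2 and Bmp4, and Bmp2 rose there by 1.84 relative to SL and fell in the other 3. Of 7 tested BMP and GDF ligand genes, out of 12 found, limma called 1 higher and 2 lower in LCDM than in SL, 3 and 2 in A2iL, 3 and 4 in 2iL-F, and 2 and 4 in 2iL. All of these lists were drawn up with earlier results of these data known. Over all tested lines, 32.2% were called higher and 33.7% lower in LCDM than in SL, and 21.9% and 31.9% in A2iL. The same shares were 28.1% and 37.3% in 2iL-F, and 36.7% and 40.9% in 2iL.

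**Figure D4:**
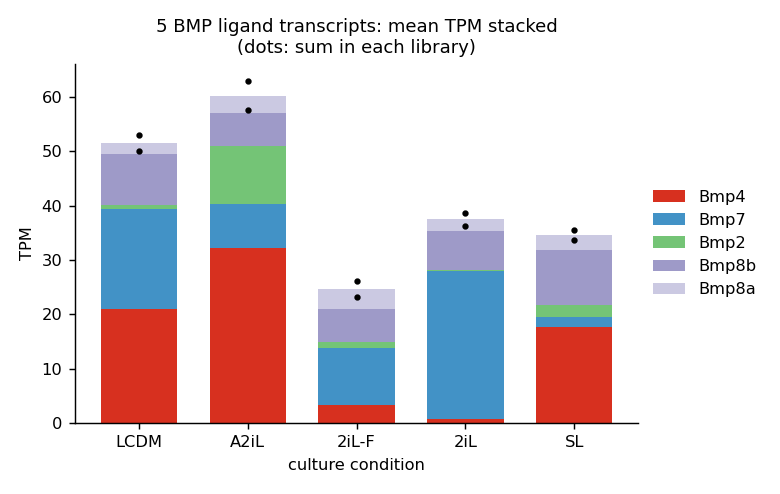
The bars stack the mean TPM of 5 BMP ligand genes in each condition. Bmp4 is the largest share in LCDM at 40.8%, in A2iL at 53.4% and in SL at 50.8%. Bmp7 is the largest in 2iL-F at 42.7% and in 2iL at 72.6%.

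Among 11 receptor and co-receptor genes tested, limma called 5 higher and 6 lower in LCDM than in SL, 5 and 2 in A2iL, 5 and 3 in 2iL-F, and 4 and 6 in 2iL. Of all tested lines, 65.9% were called in either direction in LCDM, 53.8% in A2iL, 65.4% in 2iL-F and 77.7% in 2iL. Bmpr1a, a type I receptor for BMP4, had 19.1 ± 1.64 TPM in LCDM, 21.2 ± 0.998 in A2iL, 20.5 ± 0.234 in 2iL-F, 17.7 ± 2.62 in 2iL and 25.3 ± 0.555 in SL. It fell relative to SL by 0.50 in 2iL, by 0.39 in LCDM and by 0.29 in 2iL-F. The LCDM call on Bmpr1a was lost without LCDM library 5, at -0.30, and the 2iL-F call was lost without either library of 2iL-F or SL, at -0.31 to -0.27. Acvr1b, an activin and nodal type I receptor, rose in all 4 serum-free conditions, by 1.35 in LCDM, by 0.96 in A2iL, by 0.79 in 2iL-F and by 1.65 in 2iL. Tgfbr2, the TGF-β type II receptor, had 4.09 ± 0.0957 TPM in LCDM, 23.5 ± 0.720 in A2iL, 33.6 ± 2.41 in 2iL-F, 1.66 ± 0.256 in 2iL and 21.5 ± 1.36 in SL. Its low conditions, LCDM and 2iL, were those with the lowest fibroblast sums.

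Of the 7 SMAD genes tested, Smad7 included, 1 was called higher and 3 lower in LCDM than in SL, 0 and 3 in A2iL, 2 and 3 in 2iL-F, and 2 and 3 in 2iL, with list medians between -0.27 and -0.09 against -0.08 to -0.00029 over all tested lines. The share of all lines called in either direction was 65.9% in LCDM, 53.8% in A2iL, 65.4% in 2iL-F and 77.7% in 2iL. Smad5, a BMP-responsive SMAD, fell by 0.48 in LCDM, by 0.35 in A2iL, by 0.55 in 2iL-F and by 0.87 in 2iL (limma, adjusted p from 5.21e-05 to 0.0168). The A2iL call was lost without SL library 5, at -0.30, and without A2iL library 3 or 5, at -0.33 and -0.38. Smad1, which shares that role, was called in 2iL alone of the 4, at 0.30, and Smad4, the common partner, was called in none of them at an adjusted p of 0.05 and had 35.9 to 42.7 TPM as condition means. The Smad7 levels of 104 and 105 TPM in LCDM were the highest of any tested SMAD gene.

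Of 8 extracellular antagonists and modulators tested, 1 was called higher and 6 lower in LCDM than in SL, 2 and 4 in A2iL, 4 and 2 in 2iL-F, and 2 and 6 in 2iL. Beside these and the intracellular regulators below, 33.7% of all tested lines were called lower in LCDM, 31.9% in A2iL, 37.3% in 2iL-F and 40.9% in 2iL. Fst, which encodes the activin antagonist follistatin, fell by 2.77 in LCDM, by 0.98 in A2iL, by 1.61 in 2iL-F and by 4.12 in 2iL. Fstl1, a follistatin-like gene that also stands in the fibroblast list, had 77.6 ± 3.33 TPM in LCDM, 168 ± 5.44 in A2iL, 242 ± 4.04 in 2iL-F, 7.31 ± 0.754 in 2iL and 159 ± 3.54 in SL. Bmp1, a metalloprotease that cleaves chordin and procollagen, had 9.46 ± 0.128 TPM in LCDM, 51.7 ± 2.04 in A2iL, 52.6 ± 3.69 in 2iL-F, 0.313 ± 0.0747 in 2iL and 38.8 ± 1.23 in SL. Chrd, the chordin gene, went the other way and was highest in 2iL, at 5.92 ± 0.528 TPM against 1.30 ± 0.0904 in SL. Summed fibroblast transcripts were lowest in LCDM and 2iL, where Fst and Bmp1 were lowest too, and their part in these differences was not tested. Of 14 intracellular regulators, 1 was called higher and 7 lower in LCDM, 1 and 7 in A2iL, 2 and 9 in 2iL-F, and 3 and 9 in 2iL. Skil, a repressor of SMAD-driven transcription and itself a TGF-β target, was among the lower ones in all 4, with means of 10.1 to 13.7 TPM against 33.9 ± 1.07 in SL.

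The other BMP-SMAD targets did not move as 1 group with Id3. Of 11 tested, which include Id2, Id3 and Smad7, 3 were called higher and 5 lower in LCDM than in SL, 3 and 6 in A2iL, 4 and 5 in 2iL-F, and 4 and 7 in 2iL. Among all tested lines, 65.9% were called in either direction in LCDM, 53.8% in A2iL, 65.4% in 2iL-F and 77.7% in 2iL. Id4, another Id gene, had 11.5 and 9.68 TPM in LCDM, 11.7 and 10.99 in A2iL, 45.3 and 42.6 in 2iL-F, 18.0 and 17.2 in 2iL, and 9.49 and 8.37 in SL. The LCDM and A2iL libraries overlapped, and 2iL-F stood far above the rest. Relative to SL, Id4 rose by 2.18 in 2iL-F and by 0.91 in 2iL, the 2 conditions in which Id3 was lowest. Its rise of 0.32 in A2iL was lost without SL library 5, at 0.24, or A2iL library 3, at 0.27, and the LCDM difference of 0.22 did not pass (limma, adjusted p = 0.0587). Id4 thus made up 13.6% of the summed Id2, Id3 and Id4 level in LCDM, 10.2% in A2iL, 48.0% in 2iL-F, 77.2% in 2iL and 5.40% in SL, and Id3 made up 81.8% in LCDM, 84.1% in A2iL, 44.2% in 2iL-F, 0.213% and 0 in the 2iL libraries and 84.7% in SL. That sum was 77.8 ± 4.93 TPM in LCDM, 111 ± 5.19 in A2iL, 91.5 ± 0.030 in 2iL-F, 22.8 ± 0.287 in 2iL and 165 ± 6.36 in SL (SD, n = 2 each). Id1, which lies in the lower lines, was not used, so these shares do not describe the whole Id family.

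Gata2, a transcription factor gene responsive to BMP, ran opposite to Id3 in 2iL alone, at 27.1 and 29.3 TPM against 2.45 and 2.53 in SL, a rise of 3.06 (limma, adjusted p = 4.7e-08). It had 1.24 and 1.13 TPM in LCDM, 1.14 and 0.728 in A2iL, and 2.33 and 1.88 in 2iL-F, all below SL, as was Id3. The 2iL-F mean of 2.11 TPM lay close to that of SL at 2.49. Dusp9, a phosphatase of ERK that BMP induces in mouse embryonic stem cells, had 143 and 148 TPM in LCDM, 24.9 and 24.6 in A2iL, 34.0 and 34.9 in 2iL-F, 67.2 and 57.9 in 2iL, and 104 and 106 in SL. LCDM and SL were high, and A2iL, which had the most Bmp4, was the lowest. Cdx2, a caudal homeobox gene, was listed at 0 in both 2iL libraries and had a mean of 0.143 to 0.683 TPM in the other serum-free conditions, against 3.66 ± 0.180 in SL. It is 1 of 7 trophoblast markers found, whose summed level was 92.6 to 99.7 TPM in LCDM, 78.5 to 78.6 in A2iL, 85.7 to 90.8 in 2iL-F, 138 to 151 in 2iL and 214 to 227 in SL, and their part in the Cdx2 difference was not tested. Most of that sum was Krt18 and Tfap2c, so it does not measure trophoblast RNA. Krt18 had 180 and 192 TPM in SL and 21.5 and 18.2 in 2iL. Tfap2c ran the other way, at 23.3 and 23.8 TPM in SL and 123 and 113 in 2iL.

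**Figure D5:**
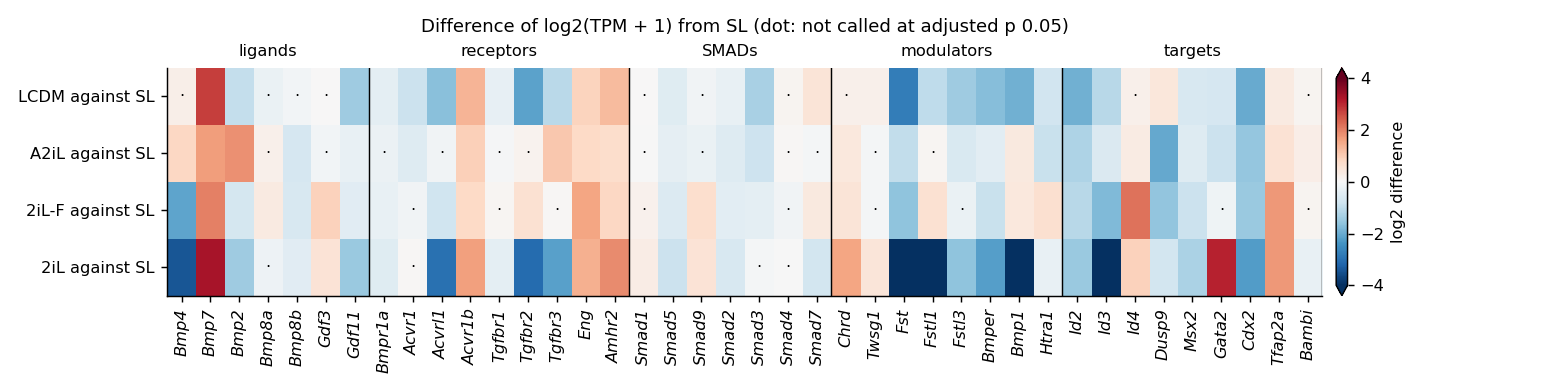
The colour scale gives log2(TPM + 1) differences of LCDM, A2iL, 2iL-F and 2iL from SL, by limma, for tested genes of the BMP and TGF-β pathway grouped by role, with dots for differences not called and colours ending at 4 in either direction. Id3 and Bmp4 are lowest in 2iL, at -7.10 and -3.41, and Bmp7 is raised in all 4 conditions, by 1.66 to 3.29.

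Over the 9 lists, 148 genes were drawn up, 89 were found in the upper lines and 73 were tested. Limma called 54 of these in LCDM against SL, or 74% of them beside 65.9% of all lines, 49 in A2iL (67.1% beside 53.8%), 57 in 2iL-F (78.1% beside 65.4%) and 63 in 2iL (86.3% beside 77.7%). These values only describe the lists.

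The genes whose log2 levels were most like those of each member over the 10 libraries were picked among 6521 candidates in the upper lines by Pearson's r. For Bmp4 they were Ccdc3 at 0.984, Ephb2 at 0.981, Tiparp at 0.978, Flywch2 at 0.975 and Hmces at 0.974. For Id3 they were Pkm at 0.994, Pik3c3 and Fosb at 0.989, E2f3 at 0.985 and Fam168a at 0.983. For Id2 they were Arpc2 at 0.991, Ilk at 0.985, Tln1 at 0.983, and Nab2 and Tead3 at 0.982. For Smad7 the nearest was Smoc1 at 0.980, followed by Tubb5 at 0.954, Raver1 at 0.946, and Adgra3 and Fasn at 0.941. The libraries share 5 conditions, so these values are descriptions over few independent points.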

How the data were processed

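Embryonic stem cell RNA in 5 culture conditions was measured in 10 libraries, 2 per condition. A Qiagen RNA kit and the NEBNext Ultra library kit were used, per the labels' protocols. The submitters' processing notes name mm10, Bowtie2, RSEM, DESeq2 and R 3.4.2. The values the authors deposited are TPM, in 1 table of 20494 lines. TPM keep no read number, so depth per library and its precision are unknown, and each library had 71.0% to 73.0% of its full TPM total in the listed lines.

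Whether symbols and values belong together was checked with families of ubiquitous genes and of genes of other tissues. In the upper lines, at least 5 TPM was found for 97.9% of 191 ubiquitous genes and 12.5% of 24 others. In the lines below, the shares on a symbol's own line were 49% of 100 and 39.7% of 204, against 96% and 1.5% on the next line. Genes were therefore named only in the upper lines. Genes of the pathway in lower lines, such as Id1 and Smad6, were not used here.

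The test was limma 3.58.1 (R 4.3.3) on log2(TPM + 1), with 1 mean for each condition, an intensity trend in eBayes, all 10 libraries and no covariate, which left 5 residual degrees of freedom. Lines with at least 1 TPM in at least 2 libraries were tested, 14578 in all and 7962 in the upper lines. The p-values were adjusted by Benjamini and Hochberg over all tested lines in each of 10 comparisons, and a line was called at 0.05. The fit was also run on simulated data, and no result of that run is used here. Figures were drawn with matplotlib 3.10.9 in Python 3.11.15. The fit was repeated with other pseudocounts, filters, scalings, without each library, without the 2iL-F and 2iL libraries, and with the library number as a block.

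The 4 genes and the lists were chosen with earlier results of these data known. Other genes were named from the lists, by role or, up to 4 per list, by size of difference among those that passed, and the 5 most alike genes per member by correlation among tested genes with at least 5 TPM in 1 library. Loci are from GENCODE vM21 and promoter sequences from RefSeq.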

Additional observations from a re-analysis of the deposited data

How the results depend on the processing

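Of 40 pairwise results of the 4 genes, 36 were called, and over 772 refits 758 kept both direction and side of the threshold. The exceptions concern Id2, Bmp4 and Smad7. For Id2, A2iL against 2iL was 0.24 without the filter and with only the 4 libraries compared, and 0.17 under quantile normalization, none of which passed, and it ran from 0.12 to 0.37 as libraries were left out. For Bmp4, LCDM against A2iL ran from -0.69 to -0.49 as libraries were left out. For Smad7, LCDM against 2iL-F ran from 0.066 to 0.17, past the threshold only without 2iL-F library 3, and A2iL against SL turned to 0.011 under quantile normalization. With only the upper lines, fewer by construction, the lines called against SL were 5664 for LCDM, 4835 for A2iL, 5645 for 2iL-F and 6469 for 2iL. Against 2iL they were 5335 for LCDM, 5872 for A2iL and 5332 for 2iL-F. Against 2iL-F they were 5215 for LCDM and 4030 for A2iL, and LCDM against A2iL gave 4826. Numbers 3 and 5 are shared by the conditions without pairing them, with correlations of same-numbered deviations of -0.131 to 0.0746 over 10 pairs of conditions, and the replicate block changed no call of the 4 genes, with 11241 lines called in 2iL against SL in place of 11321. For other named genes, 2865 of 2901 refits kept direction and call, and 36 lost the call, with 0 reversed. The causes were not tested. With unknown depth, values below about 1 TPM, such as Bmp4 and Id3 in 2iL, cannot be given a counting error.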

Other observations

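Of 8 tested targets of activin and TGF-β, limma called 3 higher and 5 lower in LCDM than in SL, 0 and 6 in A2iL, 2 and 6 in 2iL-F, and 0 and 8 in 2iL. Of all tested lines, 33.7% were called lower in LCDM, 31.9% in A2iL, 37.3% in 2iL-F and 40.9% in 2iL. The list medians were -1.27 in LCDM, -0.53 in A2iL, -1.16 in 2iL-F and -1.19 in 2iL, beside -0.00029, -0.07, -0.08 and -0.04 over all tested lines in the same conditions. Ltbp2, a gene of a latent TGF-β binding protein, had 7.07 ± 0.0515 TPM in LCDM, 37.0 ± 1.17 in A2iL, 14.4 ± 0.350 in 2iL-F, 0.113 ± 0.0390 in 2iL and 54.4 ± 2.05 in SL (SD, n = 2 each). Ctgf, a matricellular protein gene, had 60.7 ± 7.30 TPM in LCDM, 61.6 ± 0.279 in A2iL, 59.8 ± 2.22 in 2iL-F, 17.4 ± 2.32 in 2iL and 227 ± 11.3 in SL. Of 4 tested TGF-β, activin and nodal ligand genes, 0 were called higher and 2 lower in each of the 4 conditions. Tgfb3, the gene of a TGF-β ligand, fell in all 4, with log2 differences of -2.72 in LCDM, -1.66 in A2iL, -1.34 in 2iL-F and -4.70 in 2iL. Ltbp2 and Tgfb3 were lowest in LCDM and 2iL, where the summed fibroblast level was also lowest, at 1476 to 1494 TPM in LCDM and 1019 to 1079 in 2iL, against 6880 to 7143 in SL, and the part of feeder transcripts in these differences was not tested.

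Of 8 tested E protein and bHLH genes, whose products ID proteins can bind, 1 was higher and 6 lower in LCDM than in SL, 2 and 3 in A2iL, 1 and 5 in 2iL-F, and 2 and 4 in 2iL. Beside them, 33.7% of all tested lines were called lower in LCDM, 31.9% in A2iL, 37.3% in 2iL-F and 40.9% in 2iL. The E protein gene Tcf3 was highly expressed, at 202 ± 3.22 TPM in LCDM, 153 ± 3.00 in A2iL, 160 ± 11.5 in 2iL-F, 178 ± 18.9 in 2iL and 126 ± 5.83 in SL, and rose in all 4 by limma. Its call in A2iL, at 0.28, was lost without SL library 3, at 0.23, or A2iL library 3, at 0.26. Tcf12, another E protein gene, fell by 0.88 in LCDM, by 0.31 in 2iL-F and by 0.51 in 2iL. Twist1 and Twist2, bHLH genes that also stand in the fibroblast list, had 13.5 ± 1.56 and 3.14 ± 0.156 TPM in LCDM, against 60.9 ± 0.767 and 34.8 ± 2.61 in SL, and the part of feeder transcripts in this was not tested.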
